A study of Arabidopsis thaliana with 20 samples.

Results

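AT5G24240, AT5G24250, AT3G28899, AT3G42658, and AT5G54225 are 5 Arabidopsis genes that had a low signal in the roots of every mutant of the type-B ARR genes ARR1, ARR10, and ARR12. They were chosen by their fall against untreated wild type (WT) in all 7 mutants, so this fall is described here without a test. Each gene was measured by 1 of the 43603 probes of the array, of which 34034 were above background in at least 1 group and were compared. Only 6 probes of the 34034 (0.0176%) were called lower than untreated WT in all 7 mutants in a limma fit (adjusted p under 0.05), and these were the probes of the 5 genes and a probe that could not be paired with a gene.

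Type-B ARRs are the transcription factors at the end of the cytokinin (CK) phosphorelay. Receptors in the membrane perceive CK, histidine phosphotransfer proteins carry the phosphate on, and phosphorylated type-B ARRs switch on CK response genes. Among these are the type-A ARRs, which lack a DNA-binding domain and dampen the signal. In the root, CK signaling acts on cell differentiation and on the size of the meristem.

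The 5 genes have little in common in their annotation. AT3G42658 is SADHU3-2, a non-coding retrotransposon, and elements of this kind differ in expression between natural strains. AT5G54225 is LCR83, which belongs to the low-molecular-weight cysteine-rich genes for small peptides akin to plant defensins. AT3G28899 and AT5G24250 are listed as unknown proteins, and AT5G24240 carries no name in the sources used here. AT5G24240 and AT5G24250 carry consecutive locus numbers on chromosome 5, where LCR83 also lies, and the other 2 genes lie on chromosome 3. AT5G24240 overlaps AT5G24230 in the RefSeq annotation of TAIR10.1, AT3G28899 lies inside AT3G28900, and AT5G24250 has no entry in it. The array files give no probe positions, so the share of the signal that came from the overlapping genes was not tested.

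RNA was taken from the roots of seedlings grown for 10 d, with 2 arrays in each of 10 groups. There were 3 single mutants (arr1, arr10, and arr12), all 3 double combinations (arr10/12, arr1/12, and arr1/10), and the triple mutant arr1/10/12. They combine the T-DNA insertion alleles arr1-3, arr10-5, and arr12-1, so that each ARR loss rests on a single allele. WT (Col-0) roots were treated with 5 μM N6-benzyladenine, a CK, for 1 h (WT + CK), mock-treated for 1 h (WT + mock), or untreated. WT + CK and WT + mock together are called treated WT. Per the study's methods the 2 arrays are biological replicates, and p-values measure the spread between 2 such arrays per group.

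Signals are given as log2 of the background-subtracted intensity after quantile normalization, so a difference of 1 is a doubling. Between 71.8% and 78.8% of the probes of an array were well above background, and the arrays had median log2 intensities of 8.21 to 9.61 before normalization. Replicate 1 of all 8 untreated groups shared a slide, as did replicate 2, and each treated array had a slide of its own. ARR10 and ARR12 were low in all groups that carry their mutation, with group means of 5.00 to 8.07 for ARR10 against 13.42 in untreated WT and of 3.91 to 5.51 for ARR12 against 11.75. ARR1 was at 7.66 to 8.21 in arr1/10, arr1/12, and arr1/10/12, but at 12.27 and 12.52 on the arrays labelled arr1, against 11.99 and 12.01 in untreated WT. These arrays thus went against their label at this probe. Fitted differences of the 5 genes that use them are also given without them, while the counts of arrays, the correlations, and the values of other genes include them. Of 8 root markers, TIP2;3, an aquaporin of root cells, alone could be paired with a probe, and its group means were 11.35 to 12.86, while none of 6 shoot markers could be paired.

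AT5G24240 was one of the brighter members and was well above background on all 20 arrays. The arr1 arrays read 8.52 and 8.71 (log2), the arr10 arrays 8.38 and 8.75, and the arr12 arrays 8.66 and 8.38. Among the double mutants, arr1/10 read 8.03 and 8.32, arr1/12 read 8.67 and 8.47, and arr10/12 read 8.40 and 8.52, while the triple mutant had 6.82 and 7.97. In WT + CK it was 11.73 and 11.49, in WT + mock 11.09 and 11.41, and in untreated WT 11.57 and 11.54. All 14 mutant arrays thus lay below all 6 WT arrays, with a gap between 8.75 and 11.09. The probe lies on 2 spots of the array, and these differed by 0.06 in the median array and by at most 0.83.

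AT5G24250, with the next locus number, showed the same division at a much lower signal. It was not well above background on any of the 14 mutant arrays, where it lay between 2.14 and 3.17, the range in which the background-subtracted signal ends. It was well above background on all 6 WT arrays, with 5.77 and 5.62 in WT + CK, 4.95 and 5.68 in WT + mock, and 5.91 and 5.96 in untreated WT. Since the mutant values have only an upper bound, the lowest signal well above background on each array was taken in their place. By this measure AT5G24250 was at least 1.52- to 3.67-fold lower in the 7 mutants than in WT + CK, at least 1.17- to 2.82-fold lower than in WT + mock, and at least 1.79- to 4.32-fold lower than in untreated WT. The mutants have no order among themselves for this gene. A fall in root RNA can come from fewer cells of a type or from less RNA per cell, and these cannot be told apart in whole roots.

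AT3G28899 differed more from untreated WT than AT5G24240 and SADHU3-2, the other genes that were above background in the mutants. The arr1 arrays read 6.51 and 6.61, the arr10 arrays 5.89 and 6.21, and the arr12 arrays 6.08 and 5.48. Among the double mutants, arr1/10 read 5.36 and 6.93, arr1/12 read 5.67 and 5.81, and arr10/12 read 5.65 and 5.50. In the triple mutant it was 6.31 on 1 array and 5.09, not well above background, on the other. It was well above background in all WT roots, with 9.07 and 8.32 in WT + CK, 9.78 and 9.89 in WT + mock, and 10.39 and 10.19 in untreated WT. Mutant and WT arrays did not overlap, and the 3 WT groups also lay apart from one another. Its 2 spots differed by at most 0.42.

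SADHU3-2 was well above background on all 20 arrays and varied most among the mutants. The arr1 arrays read 9.45 and 9.36, the arr10 arrays 8.50 and 8.61, and the arr12 arrays 7.97 and 7.81, so that the 3 single mutants did not overlap. Of the other mutants, arr1/10 read 7.50 and 6.64, arr1/12 read 8.16 and 8.73, arr10/12 read 6.95 and 7.70, and the triple mutant read 7.44 and 7.83. The WT roots had 10.88 and 10.70 in WT + CK, 11.52 and 11.54 in WT + mock, and 11.57 and 11.53 in untreated WT. Every mutant array lay below every WT array, and arr1 was the mutant closest to WT. The 2 spots of the probe differed by at most 0.41.

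LCR83 did not separate mutants from WT. It was well above background on only 2 of 20 arrays, which were the untreated WT arrays, with 5.63 and 5.51. The 14 mutant arrays lay at 2.28 to 2.72, near the lower end of the signal. In treated WT, 3 of the 4 arrays lay there as well, with 2.45 and 2.45 in WT + CK and 2.31 on 1 WT + mock array, while the other WT + mock array had 4.53. None of the 4 was well above background. LCR83 thus stood apart from the mutants above background in untreated WT alone, the group that took part in choosing it.

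**Figure D1:**
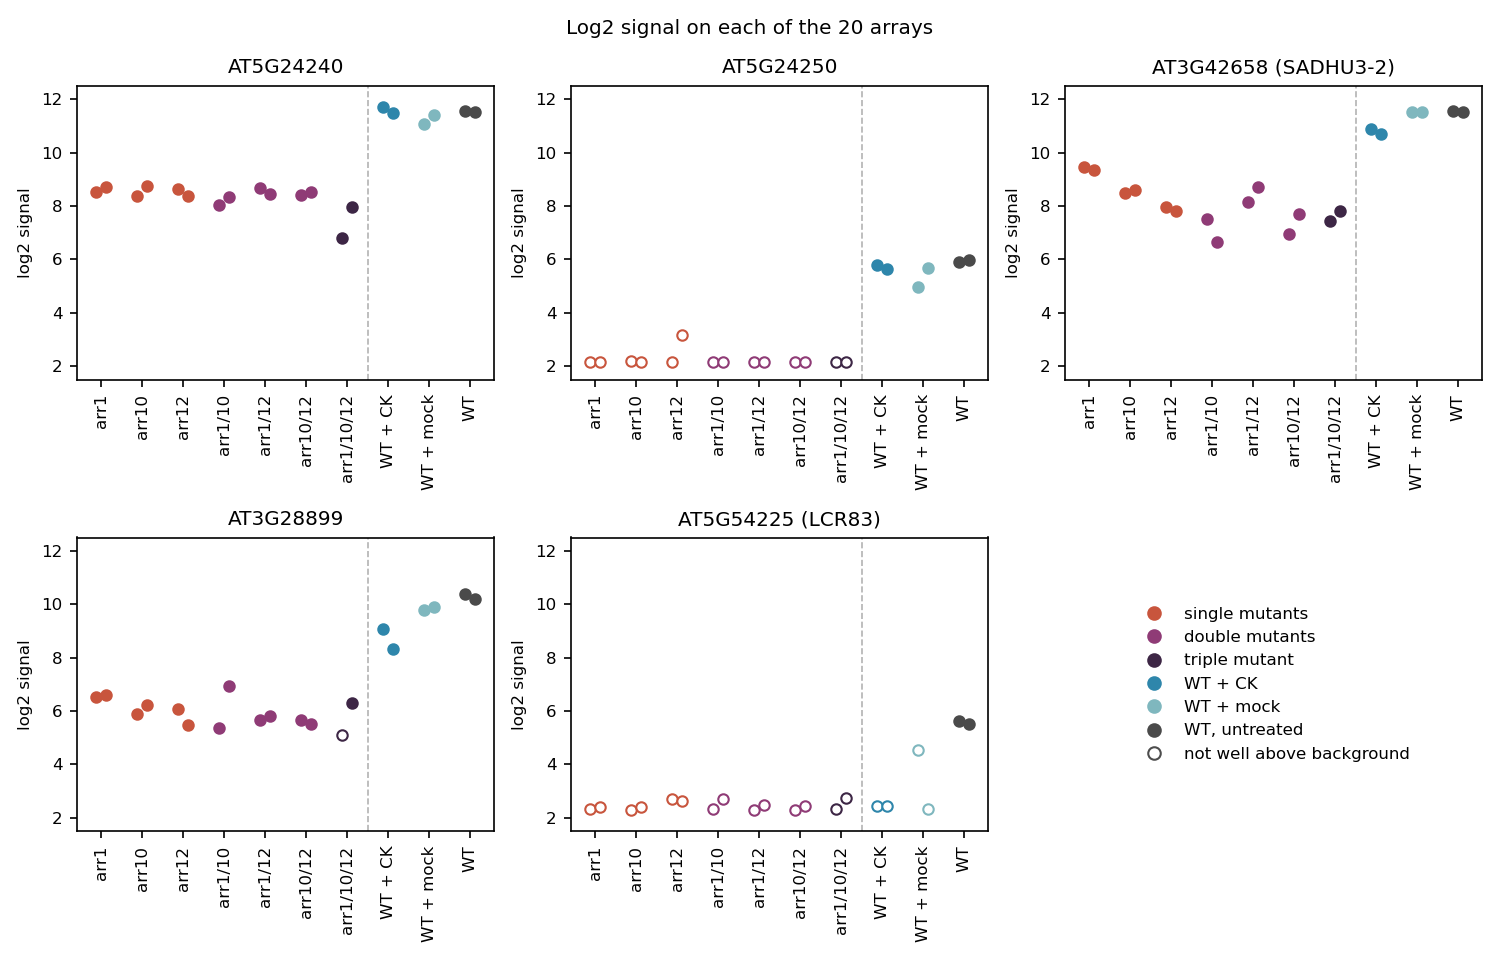
Log2 signal (vertical axis) of the 5 genes on each of the 20 arrays, with 1 point per array and the 10 groups along the horizontal axis, the 7 mutants left of the dashed line and the 3 WT groups right of it. Open points are not well above background. The mutant and WT arrays lie apart for AT5G24240, AT5G24250, SADHU3-2, and AT3G28899, and LCR83 is above background on the 2 untreated WT arrays alone.

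The order of the groups differed between the genes. For AT5G24240, arr1, arr1/12, arr10, arr12, and arr10/12 followed each other with group means of 8.62 to 8.46 and overlapping arrays, and arr1/10 (8.18) and the triple mutant (7.40) came below without overlap. For SADHU3-2, arr1 (9.40) lay above all other mutants, arr10 (8.56) and arr1/12 (8.45) overlapped, and arr12 (7.89), the triple mutant (7.63), arr10/12 (7.32), and arr1/10 (7.07) each overlapped with the next. For AT3G28899 the mutants ran from 6.56 in arr1 to 5.57 in arr10/12, and every neighbour in that order overlapped with the next.

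The first test asked whether the low level held against WT arrays that had no part in choosing the genes. In the limma fit of the mutants (mean of the 7 groups) against treated WT (mean of WT + CK and WT + mock), 17.7% of all 34034 probes were called lower. AT5G24240, SADHU3-2, and AT3G28899, which were above background on all 14 mutant arrays, or on 13 of 14 for AT3G28899, were among them. AT5G24240 averaged 8.33 in the mutants and 11.43 in treated WT, a difference of −3.10 ± 0.16 (SE) with an adjusted p of 3.13e-08, or 8.58-fold higher in treated WT. SADHU3-2 averaged 8.05 in the mutants and 11.16 in treated WT, a difference of −3.11 ± 0.16 (adjusted p = 2.94e-08), and AT3G28899 averaged 5.94 and 9.27, a difference of −3.33 ± 0.26 (adjusted p = 1.07e-06). AT5G24250 was also called (adjusted p = 9.8e-09), but it was tested only because WT roots had it above background, and with no mutant array above background its difference of −3.28 ± 0.15 has no exact size. It shrank to −0.85 under normexp background correction and to −1.05 in the table of values deposited by the authors, with adjusted p of 6.36e-08 and 1.25e-07. LCR83 was not called, with 2.46 in the mutants and 2.94 in treated WT, a difference of −0.48 with an interval of −1.06 to 0.10 (95%, adjusted p = 0.188), and −0.47 without the arrays labelled arr1 (adjusted p = 0.239).

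The mutant arrays did take part in choosing the genes, so this test is independent on the WT side only. The 4 called genes were also called against WT + CK alone, against WT + mock alone, and with the 3 single mutants alone. For AT5G24250, which no mutant array had above background, these calls carry the limit given above. These comparisons reuse arrays of the first test, and the share of all probes called in each is not given, so they add no support. Without the arrays labelled arr1 the differences were −3.15 for AT5G24240, −3.34 for SADHU3-2, −3.43 for AT3G28899, and −3.27 for AT5G24250, all 4 called. Replicate 1 of every group was scanned on one day and replicate 2 on another, and within them the differences were −3.20 and −3.0 for AT5G24240, −3.21 and −3.02 for SADHU3-2, −3.68 and −2.99 for AT3G28899, and −3.20 and −3.36 for AT5G24250. Mutant and treated WT arrays never shared a slide, so slide and group cannot be told apart here. The root marker TIP2;3 was higher in the mutants than in treated WT (0.74, adjusted p = 0.00444), and its part in these differences was not tested. In untreated WT, TIP2;3 was at 12.86, above its mutant group means of 11.94 to 12.72. Leaving out WT + mock replicate 2, the lower of the pair for LCR83, made LCR83 a call as well (−1.03, adjusted p = 1.45e-05), although none of its mutant or treated WT signals was well above background.

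Array by array, on all 14 mutant arrays AT5G24240, SADHU3-2, AT3G28899, and AT5G24250 lay below all 4 treated WT arrays, as 4.55% of all probes with a value on each of these arrays did, and below all 6 WT arrays, as 73 probes (0.217%) did. The 6 include the untreated WT arrays that took part in choosing the genes, so the second count is a description. All 14 mutant arrays lay below both untreated WT arrays for all 5 genes and for 647 probes (1.91%), a comparison that chose the genes. Of these 647 probes, 11.3% were also below the treated WT arrays. The median difference of the 647 probes was −0.32 between mutants and untreated WT and −0.08 between mutants and treated WT, and that of the 5 genes was −3.51 and −3.11. The larger fall of the 5 genes against untreated WT was set by their choice. Against treated WT, LCR83 was at −0.48, far from the median of the 5 genes.

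**Figure D2:**
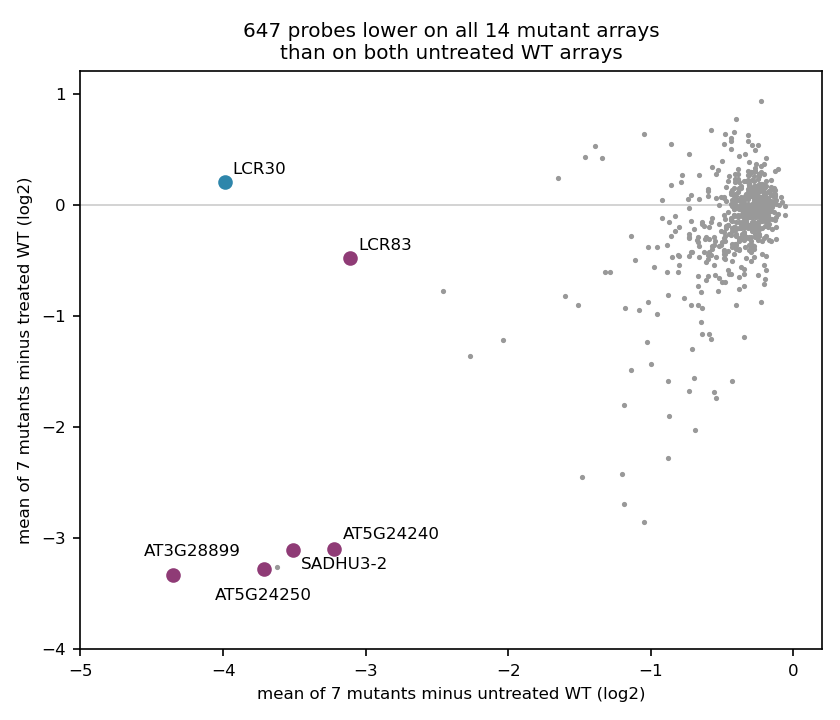
The 647 probes with a lower signal on all 14 mutant arrays than on both untreated WT arrays, as the mean of the 7 mutants minus untreated WT (horizontal axis, log2) and minus treated WT (vertical axis, log2). The 5 genes are purple and LCR30 is blue. AT5G24240, AT5G24250, AT3G28899, and SADHU3-2 lie at −3.10 to −3.33 on the vertical axis, LCR83 lies at −0.48, and LCR30 at 0.20.

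The second question was whether the low level depended on the number of ARR genes lost. Per the study's methods, the single mutants and arr1/12 came from the Salk collection. The lines arr1/10, arr10/12, and the triple mutant were provided by another researcher. Source and number of genes lost thus cannot be told apart in the triple mutant against the single mutants. Of the double mutants, only arr1/12 shared the source of the single mutants, and the part of the source was not tested. Among the 7 mutants, 2 of the 5 genes differed (moderated F, adjusted p under 0.05), as 50.6% of all probes did. SADHU3-2 had a range of 2.33 between group means (adjusted p = 0.000226) and AT5G24240 one of 1.22 (adjusted p = 0.0249), against a median range of 0.68 over all probes. The call of AT5G24240 was lost without arr1/10/12 replicate 1 (range 0.65, adjusted p = 0.112) and in a fit of only the 7 mutant groups (adjusted p = 0.0705). Both calls held without the arrays labelled arr1, with ranges of 1.49 (adjusted p = 0.00603) and 1.17 (adjusted p = 0.0316). AT3G28899 had a range of 0.98 (adjusted p = 0.521), or 0.57 without the arrays labelled arr1 (adjusted p = 0.887), and the ranges of AT5G24250 and LCR83 come from signals that were not well above background.

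Between double and single mutants, SADHU3-2 alone of the 5 genes was called, while 7.96% of all probes were called lower. It averaged 7.61 in the double mutants and 8.62 in the single mutants, a difference of −1.01 ± 0.16 (adjusted p = 0.0053). This call was lost without the arrays labelled arr1, where the difference was −0.61 (adjusted p = 0.082). AT5G24240 averaged 8.40 in the double and 8.57 in the single mutants, with an interval of −0.52 to 0.20 for the difference, and AT3G28899 averaged 5.82 and 6.13, with an interval of −0.89 to 0.27. Without the arrays labelled arr1 these differences were −0.14 for AT5G24240 and −0.09 for AT3G28899, neither called.

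In the triple mutant against the single mutants, AT5G24240 and SADHU3-2 were called lower, as 35.1% of all probes were. AT5G24240 averaged 7.40 in the triple mutant and 8.57 in the single mutants, a difference of −1.17 ± 0.23 (adjusted p = 0.000802). Its 2 triple mutant arrays gave unequal differences, and the value was −0.60 without replicate 1 and −1.75 without replicate 2. Each of these rests on 1 triple mutant array, which the fit assumes to vary like the other groups, and both were called. Both triple mutant arrays lay below all 12 other mutant arrays for this gene, which was so for 31.4% of all probes. SADHU3-2 averaged 7.63 in the triple mutant and 8.62 in the single mutants, a difference of −0.98 ± 0.23 (adjusted p = 0.00262). It was not called with array weights (adjusted p = 0.0688), nor without the arrays labelled arr1, where it was −0.59 (adjusted p = 0.0672), while AT5G24240 stayed called at −1.15 (adjusted p = 0.00238). AT3G28899 had −0.43 with an interval of −1.25 to 0.39, and −0.22 without the arrays labelled arr1.

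**Figure D3:**
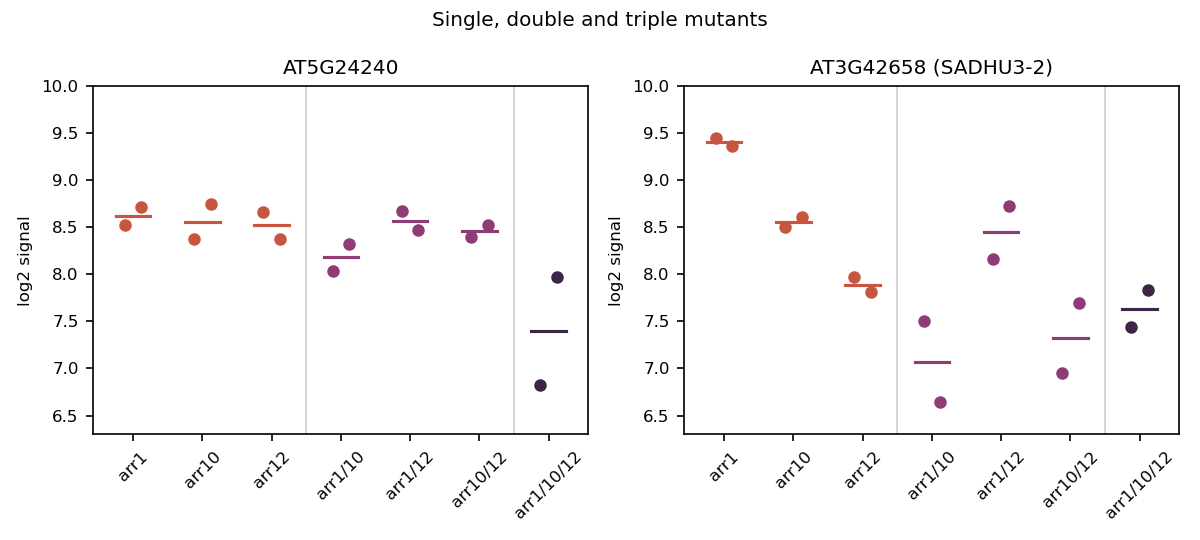
Log2 signal of AT5G24240 and SADHU3-2 (vertical axis) in the single, double, and triple mutants (horizontal axis), with 1 point per array and a line at the mean of each group; grey lines part the 3 classes of mutants, and the vertical axis does not start at 0. AT5G24240 lies between 8.03 and 8.75 in single and double mutants and lower in the triple mutant, and the SADHU3-2 arrays range from 9.45 in arr1 to 6.64 in arr1/10.

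The last question was whether 1 h of CK moved these genes in WT roots. None of the 5 genes was called between WT + CK and WT + mock in limma. Of all probes, 6.58% were called (1206 higher and 1032 lower, but 1006 higher and 1332 lower under 75th percentile scaling). With so small a share, the lack of a call does not set the 5 genes apart from other probes. At an unadjusted p under 0.05, SADHU3-2 and AT3G28899 passed, as 17.7% of all probes did. AT3G28899 averaged 8.69 in WT + CK and 9.84 in WT + mock, a difference of −1.14 ± 0.46 with an interval of −2.15 to −0.14 (limma adjusted p = 0.211, unadjusted p = 0.0293), and it was called under normexp background correction (−1.01, adjusted p = 0.0203) and in the values deposited by the authors (−1.06, adjusted p = 0.0354). SADHU3-2 averaged 10.79 in WT + CK and 11.53 in WT + mock, a difference of −0.74 ± 0.28 with an interval of −1.36 to −0.12 (limma adjusted p = 0.18, unadjusted p = 0.0226). For both genes the 2 WT + CK arrays lay below the 2 WT + mock arrays, as they did for 25.6% of all probes.

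AT5G24240 averaged 11.61 in WT + CK and 11.25 in WT + mock (interval of the difference −0.26 to 0.98, adjusted p = 0.562). AT5G24250 averaged 5.70 and 5.32 (interval −0.18 to 0.95, adjusted p = 0.497). LCR83 was called at −2.08 (adjusted p = 4.24e-05) when WT + mock replicate 2 was left out, but no array of the comparison was well above background for it. The type-A ARRs, read on the same arrays, give the scale of the CK response, and all 8 that could be paired with a probe, of 10, rose by 1.81 to 5.87. In the triple mutant against the single mutants the same 8 were called lower, as 35.1% of all probes were, with a median difference of −3.38. The gene list that paired them was drawn from changes on these same arrays, so their counts are not independent evidence. Within WT, the WT + CK and WT + mock arrays all lay below both untreated arrays for AT5G24250, AT3G28899, and LCR83, which was so for 21.4% of all probes; untreated WT took part in choosing the genes, and nothing is read from this.

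**Figure D4:**
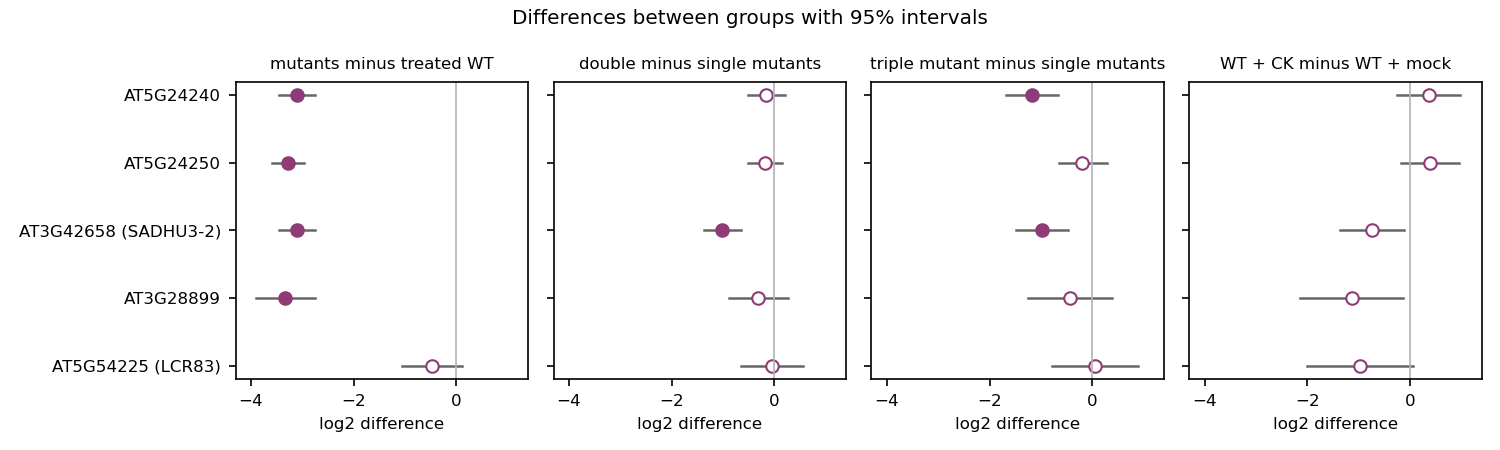
Differences in log2 signal (horizontal axis) of the 5 genes (rows) in 4 comparisons (panels), with 95% intervals from the limma fit; filled points have an adjusted p under 0.05. AT5G24240, AT5G24250, SADHU3-2, and AT3G28899 are lower in the mutants than in treated WT, and no gene is called between WT + CK and WT + mock. The mutant signals of AT5G24250 and LCR83 are not well above background, so their differences have no exact size.

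Close to the edge of the choice lay genes that share parts of the pattern. Inside it, LCR83 met the threshold of the choice most narrowly of the 5 genes (limma adjusted p = 0.0446 against untreated WT, in arr12). This value belongs to the choice itself and is not a test of LCR83, which no mutant array had above background. Just outside lay 3 probes that were called lower in 6 of 7 mutants. LCR30, of the same gene class as LCR83, was at 5.93 and 7.14 in untreated WT, with group means of 2.33 in WT + CK and 2.37 in WT + mock and a mean of 2.55 over the mutants. AT3G46340, annotated as a putative leucine-rich repeat protein kinase, had 3.38 in the mutants, 4.84 in WT + CK, 4.35 in WT + mock, and 5.42 in untreated WT. The unpaired probe inside the choice, A_84_P511413, resembled AT5G24250, with a mean of 2.45 in the mutants, 5.90 in WT + CK, 5.51 in WT + mock, and 6.06 in untreated WT, and was above background on the 6 WT arrays alone.

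Other probes also lay below all 6 WT arrays, and they are given by the size of the difference between mutants and all WT, as a description. The first named genes beside the members were ROXY2 (AT5G14070), a glutaredoxin, with 6.74 in the mutants, 10.69 in WT + CK, 8.51 in WT + mock, and 7.80 in untreated WT, and ARR7, a type-A ARR, with 10.47, 14.48, 11.84, and 11.66 in the same order. ROXY2 was at 7.19 to 7.65 in single and double mutants, close to untreated WT, and at 2.61, not well above background, in the triple mutant. ARR7 likewise had group means of 10.58 to 11.50 in single and double mutants and 6.82 in the triple mutant. For AT5G24240 the single mutants were at 8.52 to 8.62 against 11.55 in untreated WT. AT5G65030 (9.63 in the mutants, 12.57 in WT + CK, 10.49 in WT + mock, and 10.49 in untreated WT) and AT1G77525 (7.55, 9.27, 8.80, and 8.69 in the same order) followed.

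The likeness of other genes was measured as Pearson's r over the 10 group means among 2018 other named probes, as a description without a test, since the means share arrays and 14 of the 20 arrays are mutants. AT3G46150 was most like AT5G24250 (r = 0.89) and AT3G28899 (r = 0.92), AT3G46340 was most like AT5G24240 (r = 0.90), and emb2204 was most like SADHU3-2 (r = 0.89). AT3G46150 differed far less than these genes, with 6.98 in the mutants, 7.33 in WT + CK, 7.68 in WT + mock, and 7.39 in untreated WT. AT5G62110 and AT4G37240 came next for AT5G24250 (0.86 and 0.85), AT4G37240 and AT4G35720 for AT5G24240 (0.87 and 0.87), AT3G46150 and OPR2, a reductase of the 12-oxophytodienoate family, for SADHU3-2 (0.88 and 0.86), and emb2204 and AT4G07740 for AT3G28899 (0.88 and 0.87). LCR83 was most like other genes with their highest level in untreated WT, with r = 0.90 for LCR30, 0.88 for MAPKKK7, and 0.83 for AT4G10030, which was also at 5.56 in WT + mock against 6.73 in untreated WT. MAPKKK7, a kinase of the MAP kinase cascades, had 5.10 in the mutants, 5.15 in WT + CK, 5.05 in WT + mock, and 7.04 in untreated WT. Of the genes named for their likeness, AT3G46340 and AT4G10030 were well above background on 7 of the 20 arrays and emb2204 on 6. AT5G62110 and AT4G07740 were so on 4 and LCR30 on 3, while the others were so on 19 or 20. The r of the dimmer genes thus rests partly on signals not well above background. Among AT5G24240, AT5G24250, SADHU3-2, and AT3G28899, r was 0.90 to 0.97, and between each of them and LCR83 it was 0.63 to 0.77. The genes were chosen from the 8 untreated groups among these 10, so a high r between them was partly set by the choice.

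Relatives of the named genes could be followed only where the gene list that links probes to genes held them, and that list was drawn up from changes on these same arrays. Of 16 SADHU elements in the annotation, SADHU3-2 and SADHU1-2 could be paired. SADHU1-2 had group means of 9.33 to 10.17 in 9 of the 10 groups and of 6.15 in arr12. It was called in none of the comparisons, and its range of 4.01 among the mutants had an adjusted p of 0.296 (moderated F). SADHU1-2 was well above background on 19 of the 20 arrays. Whether both arr12 arrays were low was not tested, so no fall in arr12 is read from this mean. Of 81 LCR genes, 6 were paired and 4 were bright enough to be tested. LCR68 was lower in the triple mutant than in the single mutants by a difference of −2.08 (adjusted p = 2.26e-08) and LCR85 by −1.80 (adjusted p = 0.00147), while LCR85 was higher in the mutants than in treated WT (2.01, adjusted p = 9.68e-05) and LCR68 slightly lower (−0.23, adjusted p = 0.0469). For LCR85, untreated WT was at 8.28, above the mutant group means of 5.53 to 8.05, while WT + mock was at 4.24 and WT + CK at 5.68. None of the 3 annotated neighbours on each side of AT5G24240, AT3G28899, SADHU3-2, and LCR83 could be paired with a probe.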

How the data were processed

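The scanner files that the authors deposited come from Agilent Feature Extraction 10.7.1.1 and hold the intensity of each of 62976 spots after background subtraction (Cy3, 1 colour), with flags for outlier spots and for detection. A deposited table of log2 values was also read. Its values are those of the median pixel intensity, not background-subtracted, after quantile normalization of untreated and treated arrays in separate runs (largest difference 5e-09).

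The intensities were log2 transformed and quantile normalized over 61657 non-control spots of 20 arrays. Outlier spots were left out and spots of a probe were averaged. A probe was tested if 1 or more groups had it well above background on both arrays (34034 probes). Differences were tested in R 4.3.3 with lmFit and eBayes of limma 3.58.1, with 1 coefficient per group in 1 fit, 10 residual and 2.11 prior degrees of freedom, and Benjamini-Hochberg adjustment within each comparison (threshold 0.05). Precision is limited by the small number of arrays. The script was tested on simulated data.

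The array files name no genes. The study's gene list holds fold changes of the authors, which were used only as a key to find the spot of a gene (2072 of 2072 genes matched exactly 1 spot within 0.0005, and 2052 are in the RefSeq table). The copy of the list used here is shortened. The members, lists, and tests were chosen with earlier results of these data known. The genes named are the members, the mutated ARRs, for each member the 3 named probes with the highest r over group means, probes below all 6 WT arrays, neighbours, and members of the SADHU, LCR, and type-A ARR lists and of the root and shoot markers. Genes at the edge of the choice were named after their values were seen.

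Untreated arrays of the same replicate number were on the same slide. They deviated from their group means together in all 28 pairs of untreated groups (r = 0.17 to 0.52). The fit had no term for this pairing, so its SEs and p-values do not take it into account. A replicate block was run as an alternative. WT + mock and WT + CK did not deviate together (r = −0.04).

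Alternatives were 75th percentile scaling, normexp correction (offset 50) on the median signal, since the mean signal is not among the columns used here, the authors' table, other filters on dim probes, a replicate block, array weights, a fit on the groups compared, each array left out in turn, and a Student's t-test, which is only a part of the study's method. Raising dim values to the detection level of the array, slide as a random block, and leaving out the arrays labelled arr1 were added after seeing the data.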

Additional observations from a re-analysis of the deposited data

How the results depend on the processing

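Against treated WT, AT5G24240, AT5G24250, SADHU3-2, and AT3G28899 kept their direction and call in every alternative that tested them. AT5G24250 was tested only because WT roots had it above background, and no mutant array had, so its calls add no support. The count of 4 became 2 when probes had to be detected on every array, which tests AT5G24240 and SADHU3-2 alone, and it was 4 to 5 with each array left out. Between WT + CK and WT + mock, where no member was called, 1 was called under normexp correction, 1 in the authors' table (AT3G28899 in both), and 1 with the methods' t-test (SADHU3-2, p = 0.0153, 5629 of 33914 probes at their threshold, and 0 members and 1 probe after Benjamini-Hochberg adjustment), and 0 to 1 with each array left out. Among the 7 mutants, the count of 2 was 1 in a fit of only the groups compared (AT5G24240, adjusted p = 0.0705), 3 under 75th percentile scaling (AT5G24250 added, 1.47, adjusted p = 0.0451), 4 with dim values raised to the detection level, and 1 to 3 with each array left out, where AT5G24250 was called without arr12 replicate 1 (adjusted p = 0.0171). Double against single mutants gave 1 member in the fit, 3 with dim values raised, 0 without the arrays labelled arr1, and 1 with each array left out. Triple against single mutants gave 2 in the fit, 4 under 75th percentile scaling, 4 with dim values raised, 1 with array weights (SADHU3-2, adjusted p = 0.0688), 1 without the arrays labelled arr1, and 2 with each array left out.

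The calls that turned direction were of genes not well above background in the mutants. AT5G24250 in triple against single mutants was 1.15 under 75th percentile scaling and 1.06 with dim values raised, against −0.19 in the fit, and with dim values raised AT5G24250 was 0.57 and LCR83 was 0.57 in double against single mutants. These differences follow the lowest signal of each array, and no order among mutants can be read from them. With a replicate block, the number of members called was 0, 2, 1, 2, and 4 for WT + CK, the F test, double, triple, and treated WT, the same members as without it, while the count over all probes rose to 3888 from 2238 for WT + CK and to 9808 from 5908 for double against single mutants. Other counts over all probes that moved by more than 1.5 times were 615 and 3695 for WT + CK in a fit of only the groups compared and with array weights, and 10155 and 1670 for double against single mutants with slide as a random block and without the arrays labelled arr1, and, with each array left out, 1095 to 2734 for WT + CK and 2271 to 8800 for double against single mutants. Of 780 values of members under alternatives, 760 kept their side of the threshold and, where called, their direction. Uncalled differences that changed sign are among the 760. An example is AT3G28899 in triple against single mutants, at −0.43 in the fit and 0.18 without arr1/10/12 replicate 1.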
